A study of Gallus gallus with 6 samples.

Results

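Muscle cells mark proteins for destruction with ubiquitin ligases, and 7 genes for such ligases are described here in chicken breast muscle. They are the MuRF genes TRIM63, TRIM54 and TRIM55, the F-box genes FBXO32, FBXO40 and FBXO30, and the mitochondrial ligase gene MUL1. They were found by gene name in a table of 20943 genes, in which each of the 7 names had 1 row. Levels are in FPKM, the fragments of a gene per kilobase of its length, scaled to library size. All 7 averaged 1 FPKM or more and so entered the fit over 11320 genes. The genes were chosen with the difference between the groups in these same libraries already known. Their differences are therefore given as a description with no test, and nothing is supported with them.

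Pectoralis major, the fast white breast muscle, came from female broilers that were 35 days old. Birds of the vitamin E group received 100 IU/kg of vitamin E as DL-α-tocopheryl acetate in a basal diet, and control birds ate that diet with 0 IU/kg added. Each group had 3 poly(A)-selected libraries. The labels name 3 tissue samples per group and not the birds, so the spread between libraries may be partly technical. The p-values measure that spread alone. The broiler line is not known here.

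Ubiquitin ligases pick the protein that receives ubiquitin, and tagged proteins are then broken down by the proteasome. In mammalian muscle TRIM63 (MuRF1) and FBXO32 (atrogin-1) are the classic genes whose transcripts increase during fasting, disuse and glucocorticoid exposure, when muscle loses mass. FOXO transcription factors activate both genes there, and insulin and IGF signalling holds FOXO factors out of the nucleus. The MuRF proteins carry a RING finger and sit on the sarcomere. F-box proteins such as atrogin-1 are the substrate-binding subunits of cullin-RING complexes.

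The skeletal fibre markers fitted skeletal muscle. Of 20 skeletal fibre markers 17 were found, and all but PVALB had a mean above 1 FPKM. Their summed level was between 58412 and 67085 FPKM with vitamin E and between 65788 and 75789 FPKM in controls. The 16 tested had a median log2 difference, vitamin E minus control, of -0.14. Slow and cardiac fibre markers, 11 of 12 found, summed to between 9105 and 10599 FPKM with vitamin E. In controls they summed to between 5781 and 10101 FPKM. The library totals, worked out from the steps of the FPKM values, were between 14161399 and 15288812 reads with vitamin E and between 16239948 and 25477341 reads in controls. Control replicate 1 had the most reads. On the main axis of a principal component analysis (38.4% of the variance) it scored -34.4. The other 5 libraries scored -14.2 to 17.4 there. On the second axis (20.7%) control replicate 3 scored -26.4, and the other 5 libraries scored -5.12 to 15.4. Over all genes limma called 0 of 11320 at an adjusted p of 0.05 (0%), the 7 ligase genes included. With no adjustment, 1031 genes (9.11%) had a p under 0.05, of which 676 were higher with vitamin E (5.97%) and 355 lower (3.14%).

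TRIM63 encodes MuRF1, which in mammals tags myosin and other sarcomere proteins. It lies on chromosome 23 at 3221781 to 3225453, on the plus strand. Its exon length, worked out from the FPKM steps, was 1831 bases. It measured 281, 438 and 489.6 FPKM in the vitamin E libraries, against 129, 155 and 89.5 FPKM in the controls. Each vitamin E library was above each control, and the lowest vitamin E library was 1.81 times the highest control. The ratio of the means was 3.23 and the log2 difference was 1.68 ± 0.27 (SE). Every log2 difference here is vitamin E minus control, taken on log2(FPKM + 1), which understates the change of genes with low FPKM. The values rested on between 2661 and 13707 reads per library.

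TRIM55 encodes MuRF2, a partner of MuRF1 on the sarcomere. The gene spans 115378307 to 115415011 on chromosome 2. Its level was 71.0, 76.5 and 59.3 FPKM with vitamin E, against 59.3, 63.1 and 61.8 FPKM in controls. The controls lay close together (coefficient of variation 3.18%), and vitamin E replicate 3 fell among them, so the groups overlapped. The log2 difference was 0.16 ± 0.13 (SE).

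TRIM54 encodes MuRF3, which binds microtubules as well as the sarcomere. Its position is chromosome 3 at 104988814 to 104992167. Its level was 29.9, 35.0 and 48.4 FPKM with vitamin E, against 49.5, 40.3 and 48.6 FPKM in controls. The 2 lowest libraries were vitamin E replicates 1 and 2, while vitamin E replicate 3 stood at the level of the controls. The log2 difference was -0.30 ± 0.19 (SE), the only negative value among the 7 genes. It was -0.16 without vitamin E replicate 1 and -0.49 without vitamin E replicate 3.

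**Figure D1:**
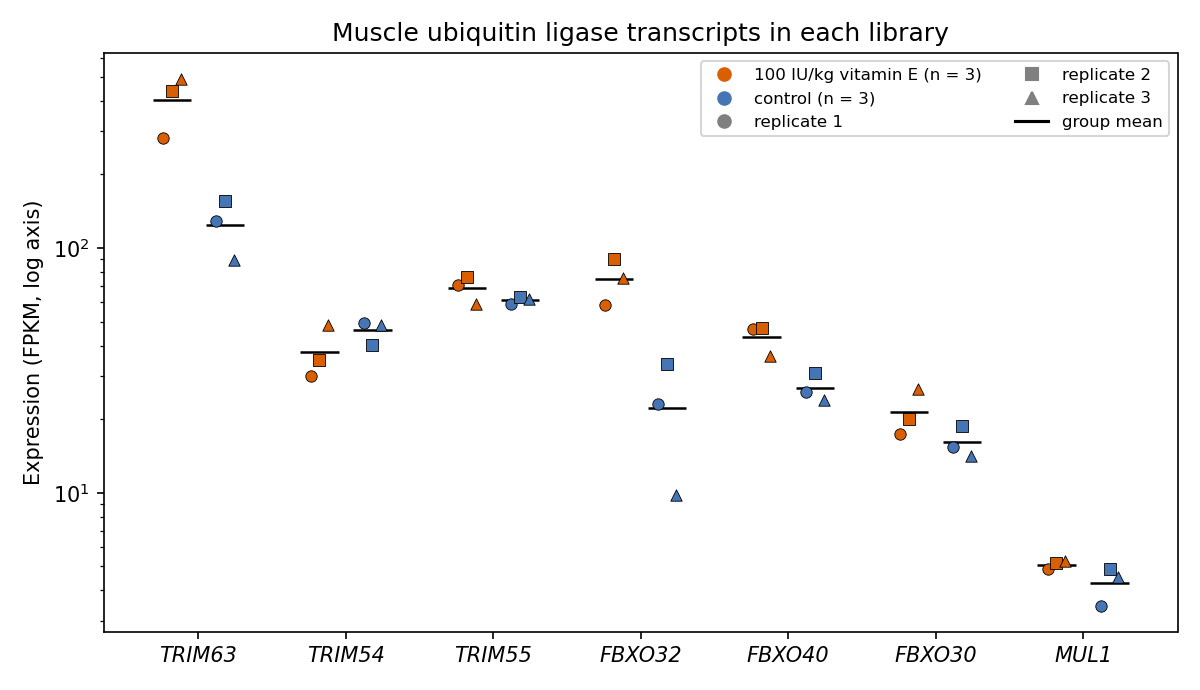
FPKM of the 7 ligase genes in each library on a log axis, vitamin E libraries on the left of each pair and controls on the right, with the mean of each group as a bar and the replicate number as the marker shape. TRIM63, FBXO32 and FBXO40 have all vitamin E libraries above all controls; the groups of the other 4 genes overlap.

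FBXO32 encodes atrogin-1, whose known mammalian targets include the myogenic factor MyoD and the translation factor subunit eIF3f. It lies on chromosome 2 at 138172191 to 138196923, on the minus strand, with a length of 6096 bases worked out from the FPKM steps. It measured 58.8, 90.3 and 75.7 FPKM with vitamin E, against 23.1, 33.7 and 9.83 FPKM in controls. The groups did not overlap, and the lowest vitamin E library was 1.75 times the highest control. The controls were far apart, with a coefficient of variation of 53.8%, against 21.1% with vitamin E, and control replicate 3 was the lowest. The log2 difference was 1.84 ± 0.40 (SE), and 1.37 without control replicate 3.

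FBXO40 encodes a muscle F-box protein that in mouse tags the insulin receptor substrate IRS1 after IGF stimulation. The gene spans 76859588 to 76874657 on chromosome 1. It measured 46.7, 47.1 and 36.1 FPKM with vitamin E, against 25.9, 30.9 and 23.9 FPKM in controls. The groups did not overlap, though the lowest vitamin E library was just 1.17 times the highest control. The log2 difference was 0.66 ± 0.15 (SE). Its annotated start overlaps that of KPNA1 on the other strand by 21 bases, and whether the counting used strand is not stated. KPNA1 itself averaged 12.5 ± 0.652 FPKM with vitamin E and 14.9 ± 1.41 FPKM in controls (SD, n = 3).

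FBXO30 encodes the F-box protein known in mouse as MUSA1, whose transcript increases after denervation when BMP signalling is blocked. Its position is chromosome 3 at 46677810 to 46694904. It measured 17.4, 20.0 and 26.5 FPKM with vitamin E, against 15.4, 18.8 and 14.1 FPKM in controls. Vitamin E replicate 3 was the highest library, and vitamin E replicate 1 lay below control replicate 2. The log2 difference was 0.37 ± 0.18 (SE), and 0.21 without vitamin E replicate 3.

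MUL1 encodes a ligase of the outer mitochondrial membrane whose mammalian targets include the mitochondrial fusion protein MFN2. The gene spans 4885625 to 4888775 on chromosome 21. It was the least abundant of the 7, at 4.86, 5.17 and 5.25 FPKM with vitamin E, against 3.46, 4.88 and 4.54 FPKM in controls. The groups overlapped by a small margin, since control replicate 2 lay just above the lowest vitamin E library. Control replicate 1, which stood apart on the main axis, was the lowest. Without it the log2 difference of 0.21 ± 0.13 (SE) was 0.095. Between 114 and 146 reads per library stood behind these values, and at 114 reads counting error alone is 9.37%.

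In all, 6 of the 7 genes had a higher mean with vitamin E, as did 54.2% of all tested genes by their log2 difference, and 3 had groups that did not overlap, all higher with vitamin E. Over all tested genes 14.6% had groups that did not overlap, 8.86% higher and 5.72% lower with vitamin E. The choice of the 7 genes used this same contrast, so nothing is read from these counts. Their median log2 difference was 0.37, beside 0.019 over all genes. Leaving out any 1 library kept the sign of the difference in each of the 7 genes. For the 3 genes whose groups did not overlap, no other outcome was possible. With 1 library left out, FBXO32 ranged from 1.37 to 2.21, TRIM63 from 1.46 to 1.92 and FBXO40 from 0.59 to 0.79. Without control replicate 1 these 3 genes were at 1.95, 1.72 and 0.64. Without control replicate 3 they were at 1.37, 1.46 and 0.59, the lowest value of each range.

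**Figure D2:**
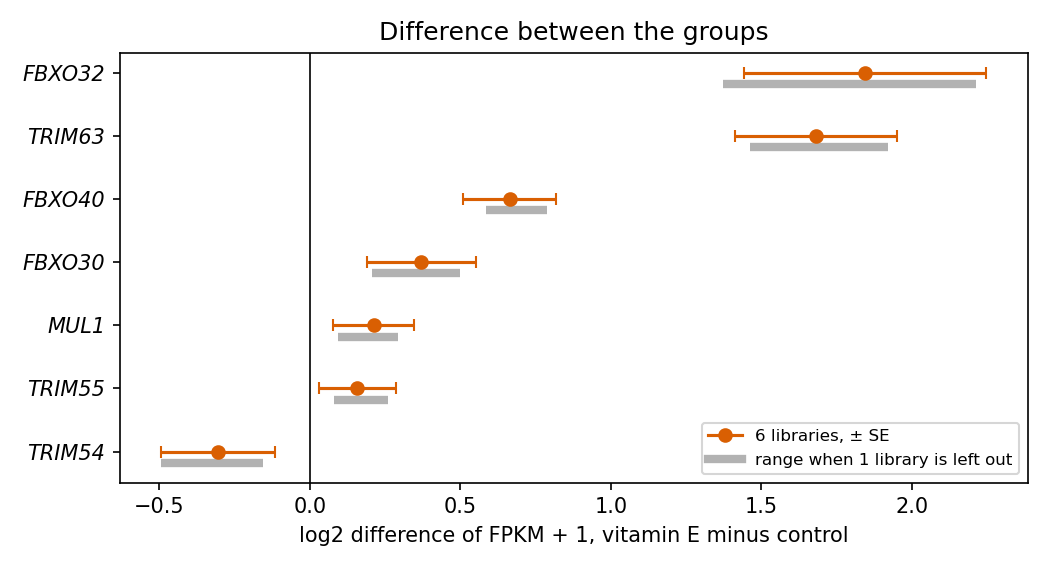
Log2 difference of FPKM + 1 for each ligase gene, vitamin E minus control, with its SE as the error bar and the range obtained by leaving out 1 library at a time as a grey line. FBXO32 and TRIM63 lie at 1.84 and 1.68, FBXO40 at 0.66, and TRIM54 alone lies below 0, at -0.30.

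FPKM is scaled by gene length, so the levels of the 7 transcripts are set side by side here. Orders and shares across genes still depend on the gene models, and the annotation used is not known. TRIM63 was the most abundant in both groups. It stood above 98.8% of tested genes by its mean FPKM with vitamin E, and above 96.5% in controls. With vitamin E the order of mean levels ran TRIM63, FBXO32, TRIM55, FBXO40, TRIM54, FBXO30 and MUL1. In controls it ran TRIM63, TRIM55, TRIM54, FBXO40, FBXO32, FBXO30 and MUL1. Neighbours in these orders whose libraries overlapped were FBXO32 with TRIM55 and FBXO40 with TRIM54 in the vitamin E group. In controls they were FBXO40 with FBXO32 and FBXO32 with FBXO30. All other neighbours were apart in every library of the group.

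The MuRF transcripts had another makeup in each group. TRIM63 held 73.6%, 79.7% and 82.0% of the summed MuRF FPKM in the vitamin E libraries, against 54.3%, 60.1% and 44.8% in controls. TRIM54 held between 6.36% and 8.10% with vitamin E and between 15.6% and 24.3% in controls. TRIM55 held between 9.93% and 18.6% with vitamin E and between 24.4% and 30.9% in controls. None of these 3 shares overlapped between the groups. They are parts of a whole, so a larger TRIM63 share leaves less for TRIM54 and TRIM55 together. The FPKM of TRIM54 and of TRIM55 overlapped between the groups. TRIM54 averaged 37.8 FPKM with vitamin E and 46.1 FPKM in controls, and TRIM55 averaged 68.9 and 61.4 FPKM. A share is a ratio within 1 library, so scaling a library by a constant leaves it unchanged. The summed MuRF level averaged 509 ± 113 FPKM with vitamin E and 232 ± 29.9 FPKM in controls (SD, n = 3).

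Among the F-box genes the FBXO32 share was higher in each vitamin E library than in each control. It held 47.9%, 57.4% and 54.7% of the summed FPKM of FBXO32, FBXO40 and FBXO30 in the vitamin E libraries, against 35.8%, 40.4% and 20.5% in controls. FBXO40 held between 26.1% and 38.0% with vitamin E and between 37.1% and 50.0% in controls, with overlap. FBXO30 held between 12.7% and 19.2% with vitamin E and between 22.6% and 29.5% in controls, without overlap. These shares too are parts of a whole. The FBXO30 transcript itself averaged 21.3 FPKM with vitamin E and 16.1 FPKM in controls, with overlap, so its lower share was not a lower level. FBXO32 was the largest of the 3 in each vitamin E library and in control replicate 2. The ratio of FBXO32 to FBXO40 was between 1.26 and 2.10 with vitamin E and between 0.411 and 1.09 in controls. The ratio of TRIM63 to FBXO32 overlapped between the groups. It was 5.37 ± 0.956 with vitamin E and 6.44 ± 2.36 in controls (SD, n = 3), with the highest value, 9.11, in control replicate 3. The mean ratio was lower with vitamin E than in controls by 1.07, and without control replicate 3 it was higher by 0.259. These shares and ratios rest on the same contrast that guided the choice of genes, and they too are descriptions.

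**Figure D3:**
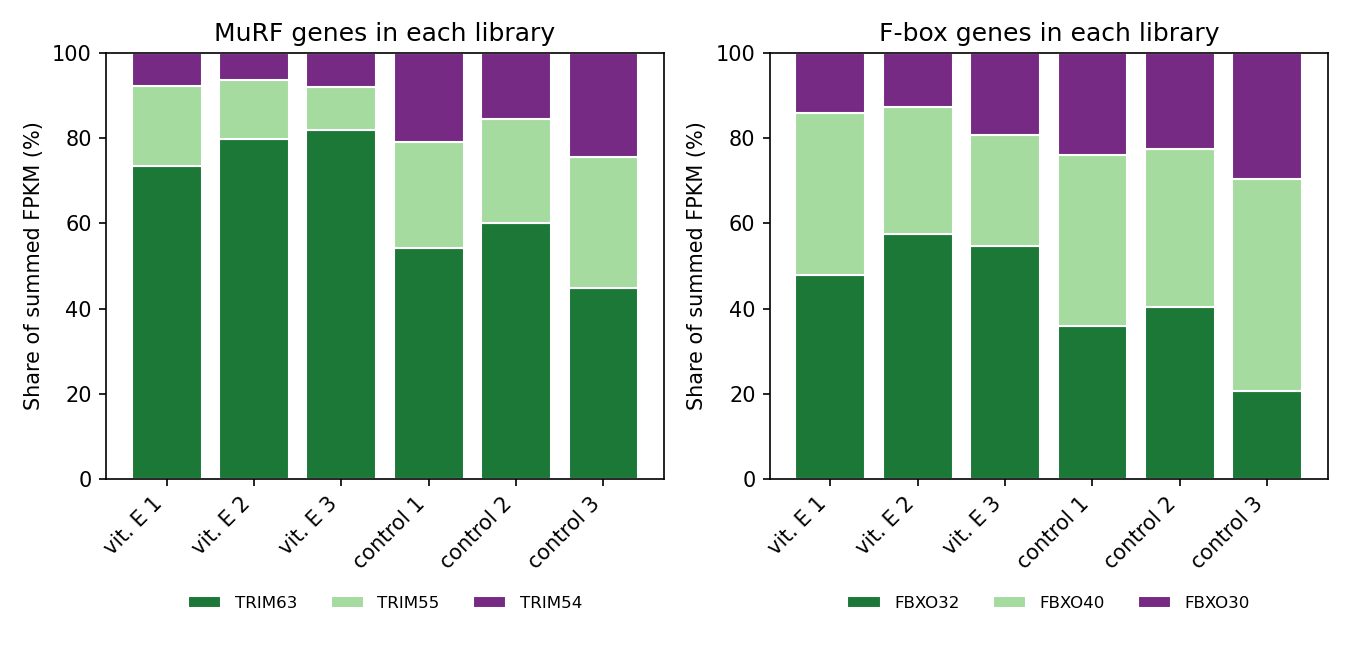
Share of the summed FPKM taken by each MuRF gene (left) and each F-box gene (right) in the 3 vitamin E libraries and then the 3 controls, 1 bar per library. The TRIM63 share is between 73.6% and 82.0% with vitamin E and between 44.8% and 60.1% in controls, and the FBXO32 share is between 47.9% and 57.4% with vitamin E and between 20.5% and 40.4% in controls.

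Variation among libraries of 1 group was described without comparing the groups. The same values enter the difference that guided the choice of genes, so the orders are not independent of that choice. Among the controls, TRIM63, FBXO32, FBXO40 and FBXO30 were all highest in replicate 2, then replicate 1, and lowest in replicate 3. That order was seen in 18.8% of all tested genes. On the log2 scale control replicate 3 lay below the control mean by 0.44 for TRIM63, 0.94 for FBXO32, 0.15 for FBXO40 and 0.17 for FBXO30. Among the vitamin E libraries the genes split. TRIM63, TRIM54, FBXO30 and MUL1 were highest in replicate 3 and lowest in replicate 1, an order held by 14.4% of all genes. TRIM55 and FBXO40 were highest in replicate 2 and lowest in replicate 3, and FBXO32 was highest in replicate 2 and lowest in replicate 1.

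The genes with profiles most like those of TRIM63, FBXO32 and FBXO40 were found by the root mean square distance of log2(FPKM + 1), centred on each gene's mean, over the 6 libraries. The distance includes the difference between the groups, so the lists describe these 6 libraries and carry no test. Nearest to TRIM63 were PDK4, a kinase gene that blocks pyruvate dehydrogenase (distance 0.25), the KCTD family gene KCTD20 (0.27) and the mitochondrial nucleotide carrier gene SLC25A33 (0.28). FBXO32 itself came next (0.31), followed by DDIT4, an inhibitor gene of the growth kinase mTORC1 (0.33). DDIT4 measured 84.5, 92.4 and 142 FPKM with vitamin E, against 30.01, 63.9 and 31.8 FPKM in controls. Like TRIM63, it was highest in vitamin E replicate 3, with no overlap between the groups.

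Nearest to FBXO32 were the sestrin gene SESN1, whose protein also restrains mTORC1 (distance 0.23), the mitochondrial carrier gene UCP3 (0.25) and the alpha-arrestin gene ARRDC2 (0.29). TRIM63 was the next (0.31), and then PFKFB3, an enzyme gene that sets the activator of glycolysis (0.31). SESN1 measured 262, 306 and 305 FPKM with vitamin E, against 62.8, 114 and 39.2 FPKM in controls. It shared with FBXO32 the order of the controls, with replicate 2 highest and replicate 3 lowest. FBXO40, with a smaller difference, lay nearest to genes of low or moderate level. They were FABP6 (0.043), the deubiquitinase gene USP32 (0.076), AMHR2 (0.079), FOPNL (0.079) and ENPP1 (0.087). USP32 averaged 14.9 FPKM with vitamin E and 9.38 FPKM in controls, and the other 4 averaged less than USP32 in both groups. FABP6 averaged 3.35 FPKM with vitamin E and 1.69 FPKM in controls, and AMHR2 averaged 1.57 and 0.556 FPKM. AMHR2 thus passed the minimum of 1 FPKM only through its vitamin E libraries. Since log2(FPKM + 1) understates the change of such low genes, their distance to FBXO40 depends in part on the added 1.

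**Figure D4:**
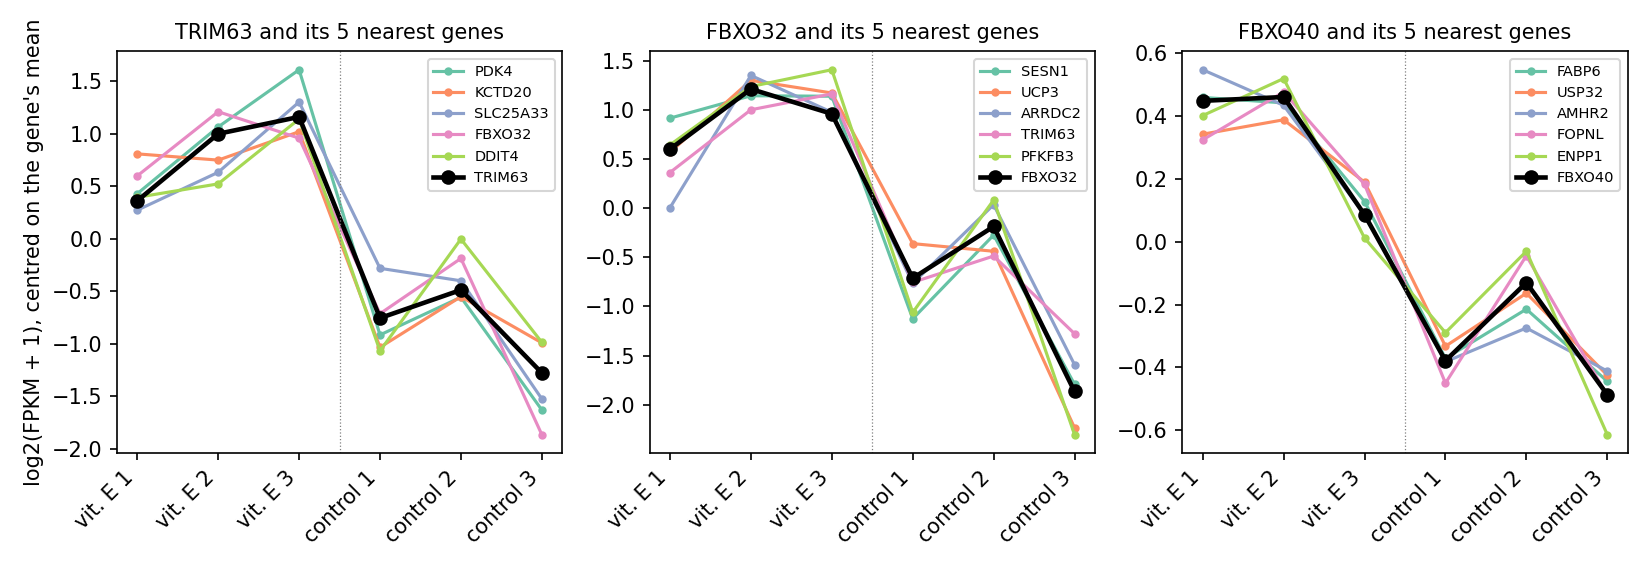
Log2(FPKM + 1) centred on each gene's mean over the 6 libraries, for TRIM63, FBXO32 and FBXO40 (black) and the 5 genes nearest to each, vitamin E libraries first; lines join the values of a gene and imply no order of the libraries. TRIM63 and FBXO32 are each among the 5 nearest genes of the other, at a distance of 0.31.

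The 7 genes lie on 5 chromosomes, and none is the nearest neighbour of another. The deposited annotation gives the RING-type zinc finger as the leading domain of all 3 MuRF genes and places TRIM63 and TRIM54 at the Z disc. For TRIM54 the protein description in the same annotation names another protein, one with fibronectin type III and SPRY domains. The tested genes next to the 7, other than KLHL38, had log2 differences between -0.24 and 0.30. Beside TRIM63, PDIK1L had a log2 difference of 0.22 ± 0.12 (SE), and SLC30A2, which starts 543 bases downstream, averaged 0.155 FPKM with vitamin E and 0.238 FPKM in controls. Beside FBXO32, KLHL38, a Kelch family gene 21399 bases away, averaged 2.81 ± 0.236 FPKM with vitamin E and 0.671 ± 0.534 FPKM in controls (SD, n = 3). Its log2 difference was 1.24 ± 0.24 (SE). KLHL38 was picked out after its values were seen. Its control mean was under the minimum of 1 FPKM, so it entered the fit only through its vitamin E libraries.

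The rest of the TRIM and F-box families held values on both sides of 0. Of 32 other TRIM genes 21 were tested, with a median log2 difference of 0.062, and they ranged from -0.55 to 0.39. At an unadjusted p under 0.05 limma had 1 higher, TRIM2, and 1 lower, TRIM7.1, or 9.52% of them beside 9.11% of all genes. The lower count was 0 when control replicate 1 was left out, or one of vitamin E replicates 1 and 3. Dropping control replicate 2 gave 3 higher and 2 lower. Without control replicate 3, 2 were lower. TRIM7.1 has close copies that may share reads. Of 47 other F-box genes 37 were tested, with a median of 0.038 and a range from -0.58 to 0.78. There 2 were higher at an unadjusted p under 0.05, FBXO9 and FBXO48, and 2 lower, FBXL22 and FBXL4 (10.8%). The higher count was 5 without control replicate 2 and 1 without control replicate 3, and the lower count was 1 without control replicate 1 or vitamin E replicate 2. Adjusted over all genes 0 of either family passed. These genes are named after their values were seen.

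Other ubiquitin ligases studied in muscle were next compared, since they could act beside the MuRF and atrogin genes. This list and the gene lists below were chosen with earlier results of these data known. Their counts are therefore descriptions, and nothing is read from them. Of 35 names 28 were found and tested, and 0 passed over all genes. The 2 most abundant were ASB2 and WWP1. ASB2, the substrate subunit of a cullin-RING ligase that tags filamins, measured 69.5, 98.3 and 103.9 FPKM with vitamin E, against 36.5, 29.0 and 4.81 FPKM in controls. The groups did not overlap, control replicate 3 was again the lowest library, and the log2 difference was 2.27 ± 0.65 (SE). WWP1 averaged 86.1 ± 7.93 FPKM with vitamin E and 75.3 ± 6.997 FPKM in controls (SD, n = 3), with overlap. At an unadjusted p under 0.05 limma had 5 higher and 0 lower (17.9%), beside 9.11% of all genes (5.97% higher). The 5 were ASB2, FBXO9, XIAP, MGRN1 and TRAF6, picked by that value. FBXO9 is also among the other F-box genes above and so counts in both lists. Leaving out control replicate 3 gave 2 higher and 1 lower, as did leaving out vitamin E replicate 2, and 2 were higher without vitamin E replicate 3. It was 3 higher without control replicate 2 or vitamin E replicate 1. The median of the 28 was 0.038, beside 0.019 over all genes.

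The lists of cullin-RING genes, of ubiquitin and its activating and conjugating enzymes, and of deubiquitinating enzymes had medians below 0. Among 21 tested cullin-RING genes, which include COPS, CAND and other genes as well as cullins, the median log2 difference was -0.055. The most abundant were COPS2, at 149 ± 18.03 FPKM with vitamin E and 155 ± 14.7 FPKM in controls, and RBX1, at 96.6 ± 3.90 FPKM with vitamin E and 125 ± 64.5 FPKM in controls (SD, n = 3). At an unadjusted p under 0.05 limma had 0 higher and 1 lower, TCEB1, at -0.50. The lower count was 3 without control replicate 2 and 0 without either of vitamin E replicates 2 and 3, and without control replicate 3 there were 1 higher and 0 lower. Ubiquitin genes with activating and conjugating enzymes (37 tested) had a median of -0.034, with 0 higher and 2 lower. These were UBE2G1 at -0.67 and UBE2N at -0.38. Without vitamin E replicate 3 there were 2 higher and 2 lower, and the lower count was 1 when any other library but control replicate 2 was left out. RPS27A, a source of ubiquitin, averaged 519 ± 36.7 FPKM with vitamin E and 499.6 ± 9.29 FPKM in controls (SD, n = 3). Deubiquitinating enzymes (23 tested) had a median of -0.089, with 1 higher, USP2 at 0.50, and 2 lower, USP25 at -0.39 and OTUD1 at -1.16. The lower count was 0 without control replicate 1, which stood apart on the main axis. It was 4 without control replicate 2, and 1 without control replicate 3 or vitamin E replicate 1. Dropping vitamin E replicate 2 gave 0 higher and 1 lower. USP25 averaged 63.9 ± 0.614 FPKM with vitamin E and 85.1 ± 18.8 FPKM in controls, and USP13, the most abundant, averaged 68.1 ± 12.7 FPKM with vitamin E and 89.0 ± 16.4 FPKM in controls. None of the genes of these 3 lists passed over all genes with limma, where 1031 of all genes (9.11%) had an unadjusted p under 0.05.

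Transcription factors that act on the atrophy genes in mammals had values in both directions. They too were listed with earlier results of these data known, so their counts are a description. FOXO3 measured 23.5, 33.9 and 29.0 FPKM with vitamin E, against 16.6, 13.96 and 11.3 FPKM in controls, a log2 difference of 1.00 ± 0.18 (SE). Its groups did not overlap. FOXO1 measured 4.96, 8.80 and 5.19 FPKM with vitamin E, against 7.36, 4.33 and 2.65 FPKM in controls, and its groups overlapped. Of 29 tested factors 0 passed over all genes, and at an unadjusted p under 0.05 limma had 5 higher and 1 lower (20.7%, beside 9.11% of all genes). The 5 were FOXO3, FOXO6, KLF15, KLF9 and CEBPD, and the lower one was the myogenic factor gene MYOG, at -0.60. Without control replicate 3 there were 3 higher and 2 lower, and likewise without vitamin E replicate 3. Dropping vitamin E replicate 2 gave 3 higher and 1 lower. The lower count was also 2 without vitamin E replicate 1 or control replicate 2. The median was 0.061, with -0.057 without control replicate 3 and -0.036 with a minimum of 5 FPKM. The most abundant factors, ATF4 and MEF2A, averaged 259 ± 12.7 and 50.05 ± 1.31 FPKM with vitamin E, and 315 ± 93.1 and 49.9 ± 3.44 FPKM in controls (SD, n = 3).

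Signals upstream of FOXO, reported protein targets and a mitochondrial list set beside MUL1 were read next. Their shares stand beside the 9.11% of all genes with an unadjusted p under 0.05. Of 26 tested genes of insulin, IGF, myostatin and BMP signalling, 2 were higher at an unadjusted p under 0.05, FST and IGF1, and 0 lower (7.69%). IGF1 averaged 2.89 ± 0.149 FPKM with vitamin E and 1.40 ± 0.442 FPKM in controls, and FST averaged 11.1 ± 3.58 FPKM with vitamin E and 6.49 ± 1.05 FPKM in controls (SD, n = 3). Both were picked by that value. The higher count was 1 without control replicate 3 or vitamin E replicate 1, and dropping control replicate 2 added 1 lower. The median of the list was -0.011, and 0.026, 0.015 and 0.0064 without control replicate 1, control replicate 3 or vitamin E replicate 1. Its most abundant gene, EIF4EBP1, had a log2 difference of -0.025. Among 20 tested sarcomere and other targets the median was -0.12, and 1 was lower at an unadjusted p under 0.05, MYBPC1 (5.00%). The count was 4 without control replicate 2, where over all genes 942 were higher and 614 lower. It was 2 without control replicate 3 or vitamin E replicate 1, and 0 without either of vitamin E replicates 2 and 3. Groups did not overlap in 20.0% of these targets, 1 higher and 3 lower, beside 14.6% of all genes. MYBPC1 stood at 180 FPKM in control replicate 1 and at between 6.89 and 27.3 FPKM in the other 5 libraries. ACTA1 and MYL1, the most abundant, had log2 differences of -0.17 and -0.12. Among 17 tested genes of the mitochondrial list set beside MUL1, BNIP3 was higher, without overlap. It averaged 92.6 ± 5.82 FPKM with vitamin E and 63.3 ± 14.9 FPKM in controls. BNIP3 was the 1 gene of the list at an unadjusted p under 0.05 (5.88%). Without control replicate 2 there were 2. OPTN, the most abundant, had a log2 difference of -0.092. The median of the 17 was -0.0054 and was above 0 whenever any 1 library was left out. None of these genes passed over all genes.

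**Figure D5:**
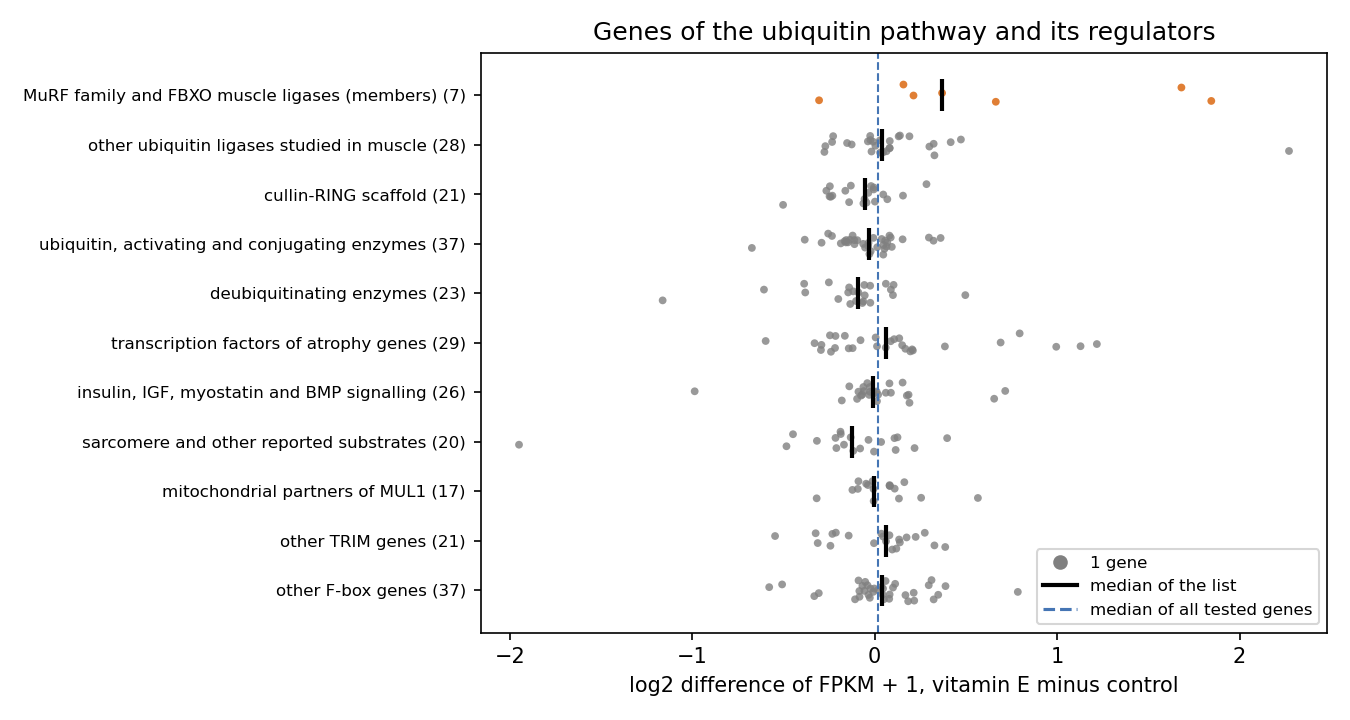
Log2 difference of FPKM + 1, vitamin E minus control, for each tested gene (points) of the 7 ligases and of the other lists, with list medians as black bars and the median of all tested genes, 0.019, as a dashed line. The medians of the other lists lie between -0.12 and 0.062, and the point at 2.27 is ASB2. The list labelled as cullin-RING scaffold also holds other cullin-RING genes. The list labelled as partners of MUL1 is a mitochondrial list set beside MUL1.

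Markers of other cell types were read in the same libraries, because breast muscle holds vessels, connective tissue, fat and blood. In bulk tissue, fewer cells of a type and less RNA per cell cannot be told apart. All 11 fibroblast markers were found, none was listed at 0 in every library, and TCF21 alone had a mean under 1 FPKM. Their summed level was between 2291 and 3224 FPKM with vitamin E and between 1587 and 1843 FPKM in controls, with no overlap, and 7 of the 10 tested had an unadjusted p under 0.05, all higher, beside 5.97% of all genes. The higher count was 5 without vitamin E replicate 1 or control replicate 3, and 6 without control replicate 1. Of the blood markers 3 of 11 were found, with sums between 75.7 and 97.6 FPKM with vitamin E and between 34.4 and 72.1 FPKM in controls. Both tested blood markers were higher at an unadjusted p under 0.05, 1 was without vitamin E replicate 1 or control replicate 2, and 0 without either of vitamin E replicates 2 and 3. Immediate early genes, which respond within a short time to stimuli such as handling, summed to between 91.4 and 117 FPKM with vitamin E, against 377.7, 109 and 173 FPKM in controls, highest in control replicate 1. Of 13 such genes 9 were found. All 8 tested were below 0, with a median log2 difference of -0.86, while 54.2% of all tested genes were above 0. JUN, EGR3 and KLF4 were below 0 by less than their SE, with KLF4 at -0.0036 ± 0.34 (SE). At an unadjusted p under 0.05 limma had 3 lower, beside 3.14% of all genes. Dropping control replicate 2 gave 5 lower, and dropping vitamin E replicate 1 gave 1. It was 2 when one of control replicates 1 and 3, or vitamin E replicate 3, was dropped. The sums of adipocyte, endothelial, smooth muscle, immune, nerve and slow fibre markers overlapped between the groups. The part of these markers in the differences of the 7 ligase genes was not tested.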

How the data were processed

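Poly(A) RNA libraries of pectoralis major were sequenced on an Illumina instrument, per the labels' protocols, and TopHat2 2.0.12 is listed in the submitters' processing notes. The authors deposited FPKM per gene and library. Which counter, annotation, strand setting and genome build they used is not stated in the sources at hand. Gene positions were read from their table, and chromosome names were given to its sequence records from gene symbols in a reference gene table (99.5% or more of symbols on 1 chromosome). Library totals, gene lengths and whole reads were worked out from the FPKM steps. Values of all 11320 tested genes came out whole within 0.01 reads, and 99.9% of these genes had a length not above their span. Summed over genes the reads made up 99.82% to 99.83% of each library total.

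Groups were compared with limma 3.58.1 in R 4.3.3, with an intensity trend, on log2(FPKM + 1) of genes that averaged 1 FPKM or more. P-values were two-sided and adjusted by Benjamini and Hochberg over 11320 genes, with 0.05 as the threshold. For a single gene, 3 libraries against 3 allow an exact two-sided permutation p of 0.1 at the lowest. The fit was tested on simulated data. The members and lists were chosen with earlier results of these data known. Named were the 7 genes, FOXO1, FOXO3, the 2 most abundant genes of each pathway list and the 5 genes nearest in profile to TRIM63, FBXO32 and FBXO40, except for some that are not reported here. Other genes of the lists were named because their unadjusted p was under 0.05, and genes next to the 7 for their position. Deviations of same-numbered libraries had correlations across genes of -0.13, 0.15 and 0.012. Those of libraries with different numbers were between -0.17 and 0.14. These values do not settle whether equal numbers mark a shared batch. Replicates differed by more than sampling noise in all pairs, with a chi-square of at least 21.6 per degree of freedom. Figures were drawn with matplotlib 3.10.9.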

Additional observations from a re-analysis of the deposited data

How the results depend on the processing

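The 7 log2 differences kept their sign under all settings tried. Under the pseudocounts, scalings, library weights and voom they moved by less than the spread between replicates. Leaving out 1 of 3 libraries cannot move a difference beyond that spread. It also cannot change the sign where the groups do not overlap, so nothing is read from it. The other settings were pseudocounts of 0.1 and 0.5, no filter or a minimum of 5 FPKM (which leaves out MUL1), 3 scalings, limma with library weights, with no trend or with robust shrinkage, the replicate number or a digit of the sample description as a term, and voom. The filters, the trend and shrinkage settings and the replicate and digit terms leave the value of a difference unchanged by design. Over all these other settings TRIM63 ranged from 1.63 to 1.77, FBXO32 from 1.82 to 2.00 and TRIM54 from -0.33 to -0.29. Leaving out 1 library gave between -0.49 and -0.16 for TRIM54, 0.080 and 0.26 for TRIM55, 0.21 and 0.50 for FBXO30, and 0.095 and 0.29 for MUL1. With a minimum of 5 FPKM, and with voom on the recovered reads, 2 genes passed over all genes in place of 0, namely CD36 and KCTD20 and none of the 7 ligases. With the replicate block 0 genes passed, and the labels do not say whether equal numbers mark paired libraries.

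The median of the sarcomere and target list was -0.098 with no filter and -0.15 with each of 3 scalings (quantile, median-of-ratios and TMM-type), and that of other TRIM genes was 0.0037 with no filter. Without single libraries the medians ranged from -0.19 to -0.078 for sarcomere and targets, and from -0.16 to -0.031 for cullin-RING genes. They ranged from -0.073 to -0.0099 for ubiquitin enzymes and from -0.057 to 0.11 for transcription factors. The ranges were -0.026 to 0.026 for signalling and 0.011 to 0.047 for the mitochondrial list. The count of higher genes at an unadjusted p under 0.05 was 980 with no filter, 942 without control replicate 2, 443 with a minimum of 5 FPKM, 442 without control replicate 3 and 441 when vitamin E replicate 2 was left out. That of lower genes was 549 with no filter, 236 with a minimum of 5 FPKM and 614 without control replicate 2. The cause of these changes was not tested.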
